A study of Mus musculus with 15 samples.

Results

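Cells of the ovary need cholesterol as the starting material of every steroid hormone. The 31 genes described here serve its synthesis, uptake, transport inside the cell, ester storage, control and efflux, and they were picked by symbol from a table of 27907 genes. All 31 were in the table and all passed the filter on low values, which kept the 21525 genes averaging 2 or more normalized counts across the 15 mice. Ovarian mRNA was sequenced from 7 HSD17B1-KI and 8 WT females, 1 library per mouse, all 6 months old and in estrus. HSD17B1-KI mice carry a Ser143Ala point mutation of the steroid-converting enzyme HSD17B1, made in the germ line so that it is present in every cell, and WT mice lack it. Mutant females were homozygous, and both genotypes came from matings of heterozygous parents. The mutation alters the protein and leaves the mRNA in place, so that the level of Hsd17b1 does not check the genotype: it was 11650 ± 4351 normalized counts in HSD17B1-KI (SD, n = 7) against 8829 ± 2952 in WT (SD, n = 8). A normalized count is the number of reads on a gene divided by the size factor that the authors gave its library. Whole ovaries were used, in which fewer cells of a type and less RNA per cell cannot be told apart.

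Between 26544745 and 72362981 reads per mouse lay on genes, and these differences limit the precision of single libraries. The library of HSD17B1-KI 1 stood apart by the mitochondrial transcript mt-Co1, which took 2.62% of its counts and 1.03% to 1.28% in the other 14. Marker genes of oocytes, granulosa cells, theca cells and luteal cells were present in all 15 libraries, at levels that differed between mice. The theca marker Cyp17a1 had between 224 and 56551 normalized counts in HSD17B1-KI and between 107 and 21605 in WT. The 5 markers of the oviduct, which lies against the ovary, summed to between 131 and 21617 normalized counts in HSD17B1-KI and between 149 and 222194 in WT. Of these markers, Sec14l3 was at 0 in 1 WT mouse. Nothing in the labels ties a mouse to a litter, so that litters could not be modelled. The p-values set the difference between the genotypes against the spread between these mice, which were taken as independent.

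Cholesterol is built from acetyl-CoA through mevalonate and squalene in a long chain of enzymes of the cytosol and the endoplasmic reticulum. When sterols run low in the endoplasmic reticulum, the escort protein SCAP carries SREBP transcription factors to the Golgi apparatus for cleavage, and their released domains bind sterol regulatory elements at many genes of the chain, often beside an NF-Y factor. When oxysterols are plentiful, the LXR receptors switch on ABC transporters that export cholesterol. Steroid-making cells of the rodent ovary also take up cholesterol esters from high-density lipoprotein through the receptor SR-BI and keep them in lipid droplets.

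The promoters below are shown because these 6 genes carry the patterns that follow. Hmgcs1 is the entry enzyme measured here, Idi1, Mvd and Cyp51 had their highest values in the same 2 WT mice, and Msmo1 and Sc5d were among the genes with higher means in HSD17B1-KI. Each sequence is the 250 bases before the RefSeq transcription start on GRCm38.p6, written 5′ to 3′ on the strand of the gene, in lower case. Capitals mark a match on either strand to TCACNCCAC, a form of the sterol regulatory element, or to CCAAT, the NF-Y box, which reads ATTGG on the other strand.
Hmgcs1 promoter, chr13:119690101-119690350, plus strand: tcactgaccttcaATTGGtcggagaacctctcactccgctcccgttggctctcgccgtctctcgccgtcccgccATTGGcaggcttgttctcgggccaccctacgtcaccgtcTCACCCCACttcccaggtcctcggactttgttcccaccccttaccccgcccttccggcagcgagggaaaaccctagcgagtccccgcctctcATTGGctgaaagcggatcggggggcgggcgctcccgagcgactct
Idi1 promoter, chr13:8885356-8885605, plus strand: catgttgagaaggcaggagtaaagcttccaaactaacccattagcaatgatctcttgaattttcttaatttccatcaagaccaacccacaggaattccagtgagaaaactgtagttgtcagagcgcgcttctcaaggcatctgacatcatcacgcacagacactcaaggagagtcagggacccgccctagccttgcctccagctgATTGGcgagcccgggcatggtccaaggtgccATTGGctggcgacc
Mvd promoter, chr8:122443423-122443672, minus strand: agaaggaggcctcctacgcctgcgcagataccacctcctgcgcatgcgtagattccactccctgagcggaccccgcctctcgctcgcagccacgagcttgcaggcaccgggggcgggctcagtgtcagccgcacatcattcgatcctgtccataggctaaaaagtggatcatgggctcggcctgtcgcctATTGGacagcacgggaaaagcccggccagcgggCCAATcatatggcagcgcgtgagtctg
Cyp51 promoter, chr5:4104698-4104947, minus strand: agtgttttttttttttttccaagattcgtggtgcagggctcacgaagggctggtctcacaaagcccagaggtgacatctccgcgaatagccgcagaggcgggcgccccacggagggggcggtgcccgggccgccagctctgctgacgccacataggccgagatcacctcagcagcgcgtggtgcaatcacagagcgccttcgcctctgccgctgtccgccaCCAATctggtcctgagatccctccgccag
Msmo1 promoter, chr8:64733579-64733828, minus strand: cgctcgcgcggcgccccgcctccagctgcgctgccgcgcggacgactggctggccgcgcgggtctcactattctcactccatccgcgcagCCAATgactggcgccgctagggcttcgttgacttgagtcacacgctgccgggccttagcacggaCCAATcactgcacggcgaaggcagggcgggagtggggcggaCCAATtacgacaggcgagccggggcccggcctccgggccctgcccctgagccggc
Sc5d promoter, chr9:42264301-42264550, minus strand: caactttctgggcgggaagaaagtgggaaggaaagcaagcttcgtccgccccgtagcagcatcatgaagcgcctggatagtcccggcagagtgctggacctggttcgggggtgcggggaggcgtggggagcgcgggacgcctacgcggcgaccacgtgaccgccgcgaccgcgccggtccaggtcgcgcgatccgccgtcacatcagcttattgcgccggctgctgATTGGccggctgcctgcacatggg
TCACNCCAC stood in the Hmgcs1 window, from 137 to 129 bases before the start, between the NF-Y boxes that begin 176 and 45 bases before it, and no match of one motif overlapped one of the other. RefSeq windows were matched for 24 of the 31 genes. Of these, 2 held TCACNCCAC, Hmgcs1 and Stard3, which is 8.33%, and 1.22% of 27025 genes with a window held it. CCAAT stood in 19 of the 24, or 79.2%, and in 37.5% of all genes. A match describes letters in the window and is no measured binding.

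In HSD17B1-KI ovaries the cholesterol genes as a list were expressed at levels close to those in WT, and the gene with the largest difference was Sc5d, with a mean 1.77 times that in WT. The median log2 fold change of HSD17B1-KI over WT was 0.02 over the 31 genes and -0.02 over all genes tested, and 19 of the 31 were above 0, or 61.3%, beside 44.8% of all genes. The number above 0 lay between 13 and 22 over the alternative fits. With limma-trend, 0 of the 31 genes were DE, that is, had a Benjamini-Hochberg adjusted p under 0.05, and 0.214% of all genes tested were DE. An unadjusted limma-trend p under 0.05 was found for 3 genes with higher expression, Fdft1, Msmo1 and Sc5d, where 5.36% of all genes were so called, and for 0 with lower expression, where 4.64% were. The 3 genes are 9.68% of the list. DESeq2 on the recovered reads called 1 gene higher, Sc5d, and 0 lower, beside 1.59% and 0.700% of all genes, and edgeR called 0, beside 0.232%. With both tools the unadjusted p was under 0.05 for higher expression in the same 3 genes, where 5.84% of all genes were so called with DESeq2 and 5.46% with edgeR. In none of the 31 genes did the genotypes separate without overlap, and they did so in 0.274% of all genes with HSD17B1-KI above WT and in 0.0511% with HSD17B1-KI below.

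The 95% intervals of the fold changes limit what could have gone unseen. For 29 of the 31 genes the limma-trend interval lay within a 2-fold change in both directions, and for 21 within a 1.5-fold change. The exceptions to the wider bound were Sc5d and Dhcr7, whose interval reached down to -1.29 on the log2 scale.

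**Figure D1:**
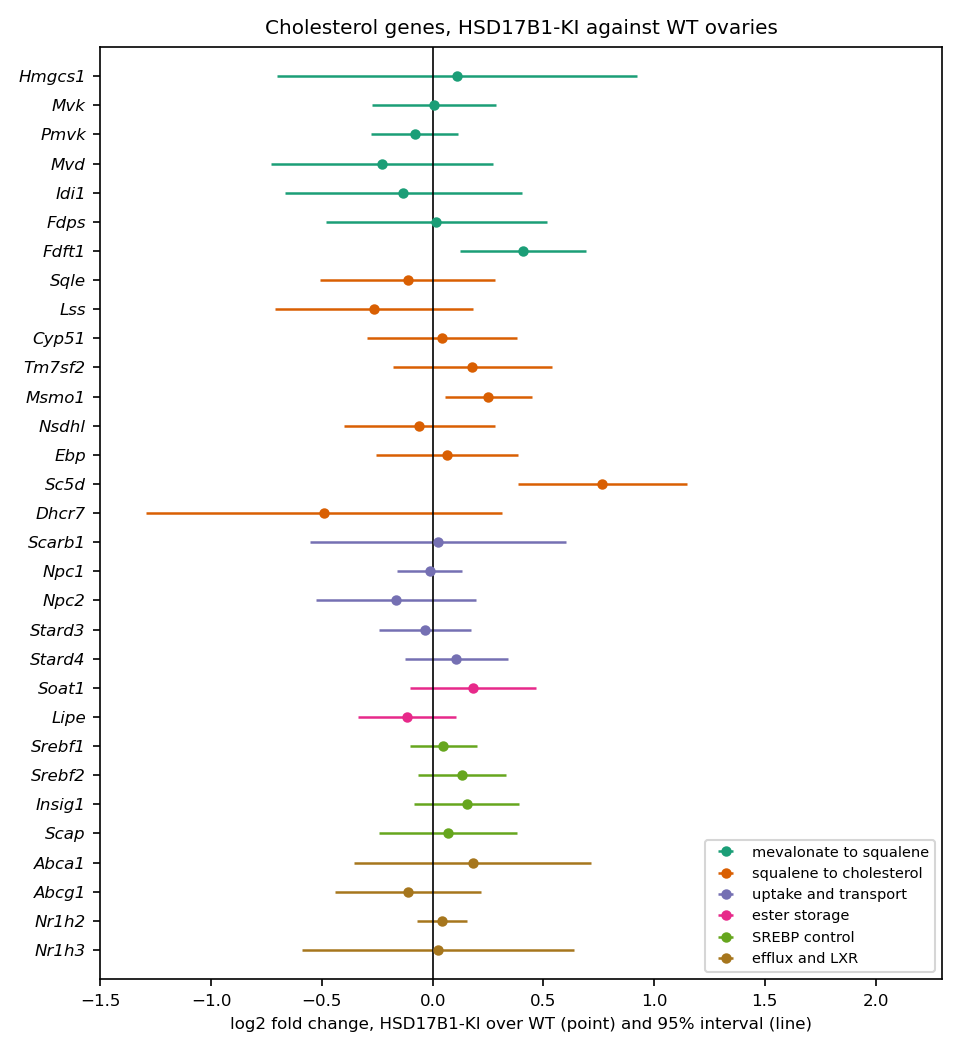
Log2 fold change of HSD17B1-KI over WT (horizontal axis) for each of the 31 genes, with points for the limma-trend estimate and lines for its 95% interval, coloured by role. Only the lines of Fdft1, Msmo1 and Sc5d leave out 0, all on the side of higher expression, and the lines of Hmgcs1, Dhcr7, Scarb1 and Nr1h3 are the widest.

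The 7 genes from HMG-CoA to squalene had a median log2 fold change of 0.0040, from -0.23 for Mvd to 0.41 for Fdft1. Hmgcs1 makes HMG-CoA, Mvk and Pmvk phosphorylate mevalonate, Mvd turns it into the isoprene unit, Idi1 isomerizes that unit and Fdps joins units to farnesyl diphosphate. None of these 6 had an unadjusted limma-trend p under 0.05, and their log2 fold changes lay between -0.23 and 0.11. Fdft1 (ENSMUSG00000021273, chr14:63145150-63179578 of mm10, minus strand), squalene synthase and the first enzyme committed to sterols, had between 4289 and 8355 normalized counts in HSD17B1-KI (median 6184). In WT it had between 3787 and 5446, with a median of 4459. 4 of the 7 HSD17B1-KI mice lay above every WT mouse and the other 3 among them. The mean was 6096 ± 1527 (SD, n = 7) in HSD17B1-KI against 4494 ± 525 in WT (SD, n = 8), a log2 fold change of 0.41 (SE, the standard error, 0.13, 95% interval 0.12 to 0.69). The unadjusted p was 0.00762 and the limma-trend adjusted p 0.267, with 0.0736 from DESeq2. The gene overlaps Ctsb on the opposite strand, a gene with a mean of 52981 normalized counts, and whether counting used the strand is not given in the sources used here.

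The 9 genes from squalene to cholesterol spanned the whole range of the list, from a log2 fold change of -0.49 for Dhcr7 to 0.77 for Sc5d, with a median of 0.04. Sc5d (ENSMUSG00000032018, chr9:42251595-42264256, minus strand) encodes the sterol desaturase that puts a double bond into the ring system near the end of the chain. It had between 4137 and 13355 normalized counts in HSD17B1-KI, with a median of 7032, and between 3144 and 4862 in WT, with a median of 4461. All HSD17B1-KI mice but HSD17B1-KI 5, which lay inside the WT range, exceeded the highest WT mouse. The mean was 7528 ± 2825 (SD, n = 7) in HSD17B1-KI against 4241 ± 619 in WT (SD, n = 8), a log2 fold change of 0.77 (SE 0.18, 95% interval 0.38 to 1.15). The unadjusted p was 0.000608 and the limma-trend adjusted p 0.0949, above the threshold.

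The call on Sc5d depended on the test. Its adjusted p was 0.00277 with DESeq2, 0.0459 in limma-trend with array weights, 0.0171 in limma-trend without HSD17B1-KI 5 and 0.0758 with edgeR, and over all alternatives it lay between 0.00277 and 0.619. HSD17B1-KI 7 had the highest count, and without it the log2 fold change was 0.61 (adjusted p from limma-trend = 0.0999). The highest adjusted p, 0.619, came from limma-trend with each animal's adipose marker score added as a covariate, chosen after seeing the data, where the log2 fold change was 0.56 and the unadjusted p remained under 0.05. The 6 adipose markers summed to between 2322 and 9910 normalized counts in HSD17B1-KI, with a median of 3732, and to between 2632 and 10811 in WT, with a median of 8442. None of them was at 0 in a library, 5 had an unadjusted limma-trend p under 0.05 for lower and 1, Plin1, for higher expression in HSD17B1-KI, and 0 passed adjustment.

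Msmo1 (ENSMUSG00000031604, chr8:64718139-64733792, minus strand), an oxidase that takes part in the removal of methyl groups from the sterol ring, had between 6803 and 9910 normalized counts in HSD17B1-KI (median 8947). In WT it had between 5870 and 8879, with a median of 7462. The groups overlapped, with 4 of the 7 HSD17B1-KI mice over the highest WT value and WT 1 lowest of all. The mean was 8724 ± 958 (SD, n = 7) in HSD17B1-KI against 7345 ± 987 in WT (SD, n = 8), a log2 fold change of 0.25 (SE 0.09, 95% interval 0.05 to 0.45). The unadjusted p was 0.0155 and the limma-trend adjusted p 0.348, with 0.190 from DESeq2. When WT 1 and WT 8, the libraries with most oviduct marker, were left out, the unadjusted p of Msmo1 was no longer under 0.05, at a log2 fold change of 0.18, while those of Fdft1 and Sc5d were. With array weights the log2 fold change of Msmo1 was 0.17 and its unadjusted p was 0.0999. With the adipose marker score as a covariate neither Msmo1 nor Fdft1 had an unadjusted p under 0.05, at log2 fold changes of 0.18 for Msmo1 (adjusted p from limma-trend = 0.934) and 0.26 for Fdft1 (adjusted p from limma-trend = 0.920).

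Dhcr7 (ENSMUSG00000058454, chr7:143823145-143848410, plus strand) encodes the reductase that ends one branch of the chain with cholesterol, and it varied more between mice than any other gene of the list, over 2.51 log2 units. It had between 2210 and 6405 normalized counts in HSD17B1-KI, with a median of 2963, and between 1949 and 11074 in WT, with a median of 6215. The WT mice split, with WT 4, WT 7 and WT 8 below every HSD17B1-KI mouse and WT 1, WT 2, WT 3 and WT 5 above every one. The mean was 3481 ± 1392 (SD, n = 7) in HSD17B1-KI against 5590 ± 3299 in WT (SD, n = 8), and the log2 fold change of -0.49 (SE 0.38, 95% interval -1.29 to 0.31) was within the spread between mice (adjusted p from limma-trend = 0.716). The other genes of this segment, the epoxidase Sqle, the cyclase Lss, the lanosterol demethylase Cyp51, the reductase Tm7sf2, the dehydrogenase Nsdhl and the isomerase Ebp, had log2 fold changes between -0.26 and 0.18, and none had an unadjusted limma-trend p under 0.05. Cyp51 overlaps Akap9 on the opposite strand, and Tm7sf2 overlaps Vps51 on the same strand.

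**Figure D2:**
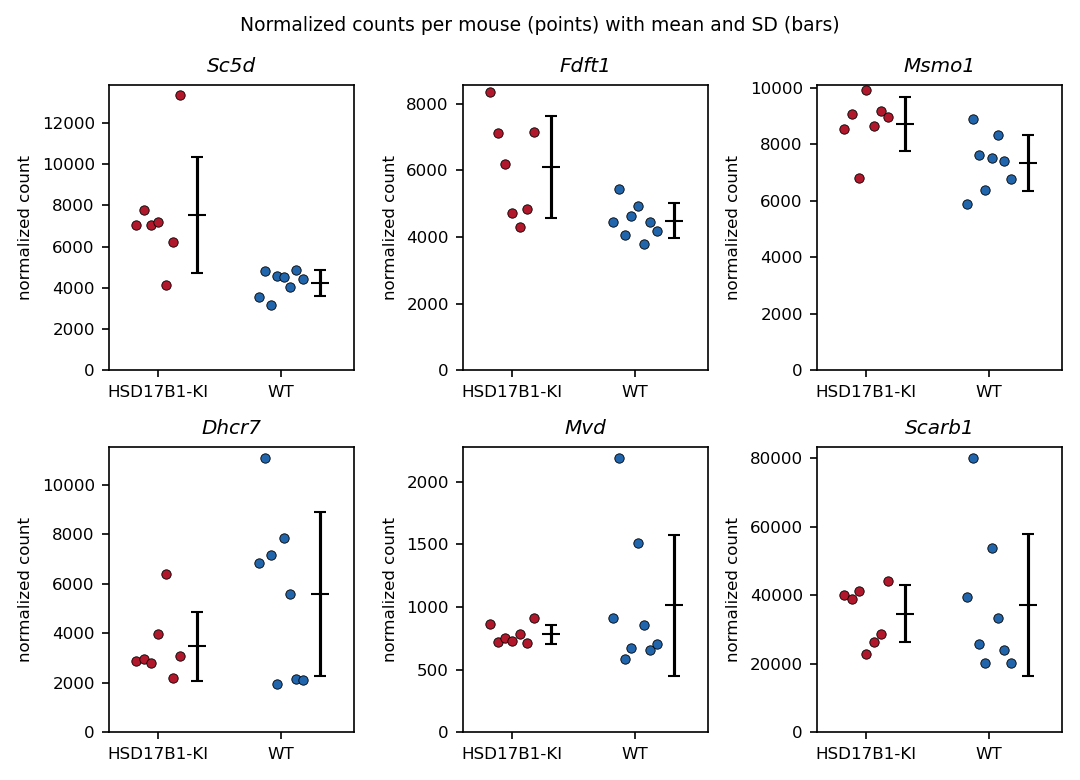
Normalized counts of 6 genes (vertical axes, starting at 0) in each HSD17B1-KI and WT mouse, with points for mice and bars for the mean and SD. Sc5d separates the genotypes except for HSD17B1-KI 5, Fdft1 and Msmo1 overlap in part, and in Dhcr7, Mvd and Scarb1 the highest mouse is WT 2.

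The 5 genes of uptake and transport had a median log2 fold change of -0.01, and none had an unadjusted limma-trend p under 0.05. Scarb1 (ENSMUSG00000037936) encodes SR-BI. It had between 22991 and 44026 normalized counts in HSD17B1-KI, with a median of 38874, and between 20342 and 80075 in WT, with a median of 29639. The HSD17B1-KI mice lay inside the WT range, and the log2 fold change was 0.02 (SE 0.27, 95% interval -0.55 to 0.60, adjusted p from limma-trend = 0.984), with a sign that depended on the fit: it was 0.029 with upper quartile scaling, -0.036 with quantile normalization, -0.021 with array weights and -0.10 with edgeR. Npc2 (ENSMUSG00000021242), which hands cholesterol from the lumen of late endosomes to the membrane protein of Npc1, had the largest difference of the group. It had between 7725 and 11446 normalized counts in HSD17B1-KI, with a median of 10181, and between 7504 and 16831 in WT, with a median of 11063. WT 2 and WT 5 were above all other mice and the remaining ones overlapped, with means of 9734 ± 1375 in HSD17B1-KI (SD, n = 7) against 11277 ± 3587 in WT (SD, n = 8) and a log2 fold change of -0.16 (SE 0.17, 95% interval -0.52 to 0.20, adjusted p from limma-trend = 0.802). Npc1 itself, the endosomal sterol-binding protein Stard3 and the cytosolic carrier Stard4 had log2 fold changes between -0.03 and 0.11. Npc1 was among the steadiest genes, with 3961 ± 205 normalized counts in HSD17B1-KI (SD, n = 7) against 4013 ± 431 in WT (SD, n = 8).

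The 2 genes of ester storage work in opposite directions, Soat1 joining cholesterol to fatty acids and Lipe releasing it again. Soat1 (ENSMUSG00000026600) had between 38195 and 56258 normalized counts in HSD17B1-KI, with a median of 48386, and between 33541 and 62571 in WT, with a median of 39626. WT 2 was highest and WT 8 lowest of all mice, so that the WT range enclosed that of HSD17B1-KI. The mean was 47273 ± 7055 (SD, n = 7) in HSD17B1-KI against 42157 ± 9938 in WT (SD, n = 8), a log2 fold change of 0.18 (SE 0.13, 95% interval -0.10 to 0.47, adjusted p from limma-trend = 0.701). Lipe, the hormone-sensitive lipase that fat cells also express, showed a log2 fold change of -0.12 (SE 0.10, adjusted p from limma-trend = 0.763), and the adipose marker sums given above also had a lower median in HSD17B1-KI. With the adipose marker score as a covariate the log2 fold change of Lipe was -0.0014 (adjusted p from limma-trend = 0.999). That covariate was added after seeing the data, and the part of fat cell RNA in the level of Lipe was not tested.

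All 4 genes of the SREBP control had log2 fold changes above 0, between 0.05 for Srebf1 and 0.15 for Insig1, and none had an unadjusted limma-trend p under 0.05. Insig1 (ENSMUSG00000045294) encodes the protein that holds SCAP back in the endoplasmic reticulum and is itself a target of SREBP. It had between 2639 and 3898 normalized counts in HSD17B1-KI, with a median of 3639, and between 2440 and 4082 in WT, with a median of 3003. The HSD17B1-KI values lay inside the WT range, with means of 3467 ± 489 in HSD17B1-KI (SD, n = 7) against 3124 ± 525 in WT (SD, n = 8) and a log2 fold change of 0.15 (SE 0.11, 95% interval -0.08 to 0.39, adjusted p from limma-trend = 0.698). Srebf2, the factor that acts mostly on sterol genes, was above every WT mouse in 4 of the 7 HSD17B1-KI mice, and HSD17B1-KI 6 was below every one, at a log2 fold change of 0.13 (SE 0.09, adjusted p from limma-trend = 0.694). Srebf1, which acts more on fatty acid genes, and Scap, the escort, had log2 fold changes of 0.05 and 0.07. Srebf1 overlaps Rai1 on the opposite strand.

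Among the genes of efflux and LXR the median log2 fold change was 0.03, and none had an unadjusted limma-trend p under 0.05. Abca1 (ENSMUSG00000015243), which loads cholesterol onto apolipoprotein A-I, had between 12332 and 49360 normalized counts in HSD17B1-KI, with a median of 20330, and between 13516 and 32232 in WT, with a median of 17280. HSD17B1-KI 4 was far above every other mouse and HSD17B1-KI 1 below all of them. The mean was 23125 ± 12122 (SD, n = 7) in HSD17B1-KI against 19543 ± 6697 in WT (SD, n = 8), with a log2 fold change of 0.18 (SE 0.25, 95% interval -0.36 to 0.72, adjusted p from limma-trend = 0.862), which became -0.02 without HSD17B1-KI 4. Abcg1, which exports cholesterol to high-density lipoprotein, showed a log2 fold change of -0.11 (SE 0.16, adjusted p from limma-trend = 0.861). The receptor genes differed in how steady they were. Nr1h2, which encodes the widely expressed LXR beta, spanned 0.28 log2 units over the 15 mice, the narrowest range of the list, and Nr1h3, which encodes LXR alpha, spanned 2.01, with its highest values, 896 and 1053 normalized counts, in HSD17B1-KI 4 and HSD17B1-KI 5.

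Differences between mice of the same genotype were shared between genes. WT 2 had the highest value of the 15 mice for 18 of the 31 genes, or 58.1%, beside 6.25% of all genes tested. WT 2 and WT 5 were the 2 highest mice for 13 genes, or 41.9%, beside 2.48% of all genes. These were the synthesis genes Mvk, Mvd, Idi1, Fdps, Sqle, Lss, Cyp51, Nsdhl and Dhcr7, and Scarb1, Npc2, Lipe and Scap. In Mvd, WT 2 had 2190 and WT 5 had 1512 normalized counts, and the other 13 mice had between 584 and 915. In Scarb1, WT 2 had 80075 and WT 5 had 53712, and the others between 20342 and 44026. WT 2 was 2.27 times the WT median in Idi1, 2.34 times in Sqle and 1.89 times in Cyp51. It was 1.08 times in Sc5d, 1.19 times in Msmo1 and 1.22 times in Fdft1, the 3 genes with the lowest unadjusted p between genotypes. That p includes the WT values, so the 3 ratios are not independent of how these genes were picked. Ratios as low were found outside the 3, with 0.91 in Npc1 and 1.05 in Srebf1.

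Values of other measures stood beside this pattern. The 4 luteal markers summed to 94929 normalized counts in WT 2 and 77875 in WT 5, and to between 21451 and 46887 in the other WT mice. In HSD17B1-KI the sum lay between 37260 and 84776, none of the 4 markers was at 0 in a library, and between the genotypes no unadjusted limma-trend p among them was under 0.05. The part of luteal RNA in the pattern was not tested. The mean of the centred log2 values of all 31 genes, a score per mouse, was 0.49 in WT 2 and 0.28 in WT 5, and lay between -0.33 and 0.15 in the other 13 mice. It was 0.09 in HSD17B1-KI 7, whose luteal sum of 84776 was above that of WT 5. Of the 4 luteal markers, HSD17B1-KI 7 was above WT 2 only in Lhcgr, with 44182 against 35356, and in Ptgfr it had 6719 against 13612. WT 2 had the most reads of all libraries, 72362981, and WT 5 had 59515490. HSD17B1-KI 3 with 69972608 reads and WT 4 with 63201057 had scores of -0.07 and -0.33. The part of sequencing depth in the pattern was not tested. The mean score was 0.02 ± 0.11 in HSD17B1-KI (SD, n = 7) against -0.01 ± 0.29 in WT (SD, n = 8). The SD of the log2 values was larger in WT than in HSD17B1-KI for 25 of the 31 genes, or 80.6%, beside 54.8% of all genes.

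**Figure D3:**
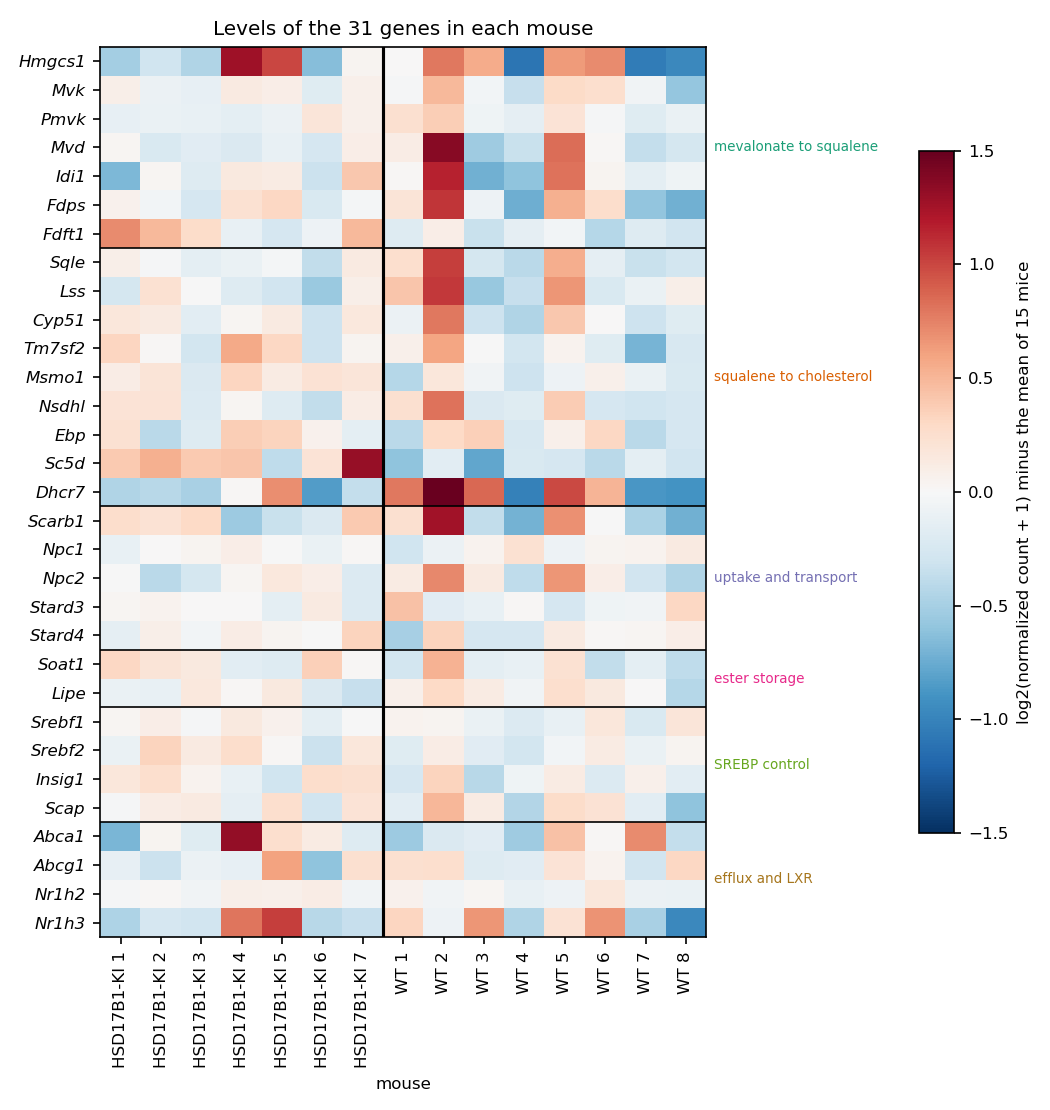
Log2(normalized count + 1) of each gene (rows, grouped by role) in each mouse (columns), as the difference from the mean of the 15 mice, with red for higher and blue for lower. The columns of WT 2 and WT 5 are red across most synthesis genes, Scarb1 and Npc2, the row of Sc5d is red in 6 of the 7 HSD17B1-KI mice, and in the rows of Hmgcs1 and Nr1h3 the reddest column is HSD17B1-KI 4 or HSD17B1-KI 5.

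Hmgcs1 (ENSMUSG00000093930) had another pattern over the mice than most synthesis genes. It had between 11563 and 43623 normalized counts in HSD17B1-KI, with a median of 14596, and between 8431 and 31122 in WT, with a median of 22319. The widest gap in its values set 6 mice, HSD17B1-KI 4 and 5 and WT 2, 3, 5 and 6, with 26552 or more, above the other 9, with 18467 or fewer. Both genotypes stood on both sides, and the log2 fold change was 0.11 (SE 0.38, 95% interval -0.70 to 0.92, adjusted p from limma-trend = 0.951). The 6 granulosa markers summed to between 58729 and 182015 normalized counts in HSD17B1-KI and to between 64244 and 160491 in WT. The sum was 58729 in HSD17B1-KI 4 and 74075 in HSD17B1-KI 5, the mice with the most Hmgcs1, and 160491 in WT 4 and 155718 in WT 7, those with the least. None of these markers was at 0 in a library, and between the genotypes no unadjusted limma-trend p under 0.05 was found among the 6. The 4 markers of theca and interstitial cells summed to 544606 in HSD17B1-KI 4 and 507374 in HSD17B1-KI 5, and to 173415 in WT 4 and 201551 in WT 7. Cyp11a1 made up most of the sum, with 470912 in HSD17B1-KI 4, the highest value of that genotype. Star was lowest of WT in WT 4, at 5151. Cyp17a1 and Insl3 went the other way in HSD17B1-KI 4, lowest of its genotype at 224 and 29.4 (medians 41683 and 65.1). Insl3 was highest of WT in WT 4, at 37.0. Between the genotypes 1 of the 4 markers, Insl3, had an unadjusted limma-trend p under 0.05, for higher expression in HSD17B1-KI, and 0 passed adjustment. The parts of granulosa cell RNA and of theca and interstitial cell RNA in the level of Hmgcs1 were not tested.

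Relations across mice were computed for 7 pairs of genes on log2 values centred within genotype. Dhcr7 followed Hmgcs1, with Pearson's r of 0.89 (permutation test over 15 mice, p = 0.00022, adjusted 0.00154 over the 7 pairs) and Spearman's rho of 0.89 (permutation p = 7e-05, adjusted 0.00049). Without HSD17B1-KI 4 and WT 4, the mice farthest from the median of Hmgcs1, r was 0.93, and within the genotypes it was 0.84 in HSD17B1-KI and 0.95 in WT. Idi1 followed Hmgcs1 by rank, with rho of 0.68 (permutation p = 0.00871, adjusted 0.0305) and r of 0.52 (permutation p = 0.0589, adjusted 0.151), and r was 0.46 without the same 2 mice. Sqle gave r of 0.51 and rho of 0.57 with Hmgcs1, which did not pass adjustment (permutation, adjusted p = 0.151 and 0.0821).

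The other 4 pairs had no relation across the 15 mice that passed, with r of -0.31 for Insig1 and 0.32 for Scarb1, both with Hmgcs1, 0.35 for Scarb1 with Star and -0.12 for Abca1 with Abcg1, and with adjusted permutation p-values between 0.33 and 0.712. The values within genotypes went apart for some of them. Insig1 with Hmgcs1 had r of 0.06 in WT and -0.82 in HSD17B1-KI (exact permutation p = 0.0395). Scarb1 with Hmgcs1 had r of 0.76 in WT (exact permutation p = 0.0338) and -0.71 in HSD17B1-KI (exact permutation p = 0.0819), and Scarb1 with Star, which carries cholesterol into mitochondria, had 0.69 in WT (exact permutation p = 0.0648) and -0.79 in HSD17B1-KI (exact permutation p = 0.0359). By rank the values in HSD17B1-KI were weaker, with rho of -0.68 for Insig1 and -0.39 for Scarb1, both with Hmgcs1, and -0.54 for Scarb1 with Star (exact permutation p = 0.110, 0.396 and 0.236). Adjusted over the 14 values within genotypes, none passed by r or by rank. The lowest adjusted exact permutation p of r was 0.066, for Dhcr7 with Hmgcs1 in WT. For the pairs of this paragraph it was 0.111 or more. The difference between the genotypes was not tested. HSD17B1-KI 4 and 5 had the most Hmgcs1 and the least Scarb1 of that genotype.

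**Figure D4:**
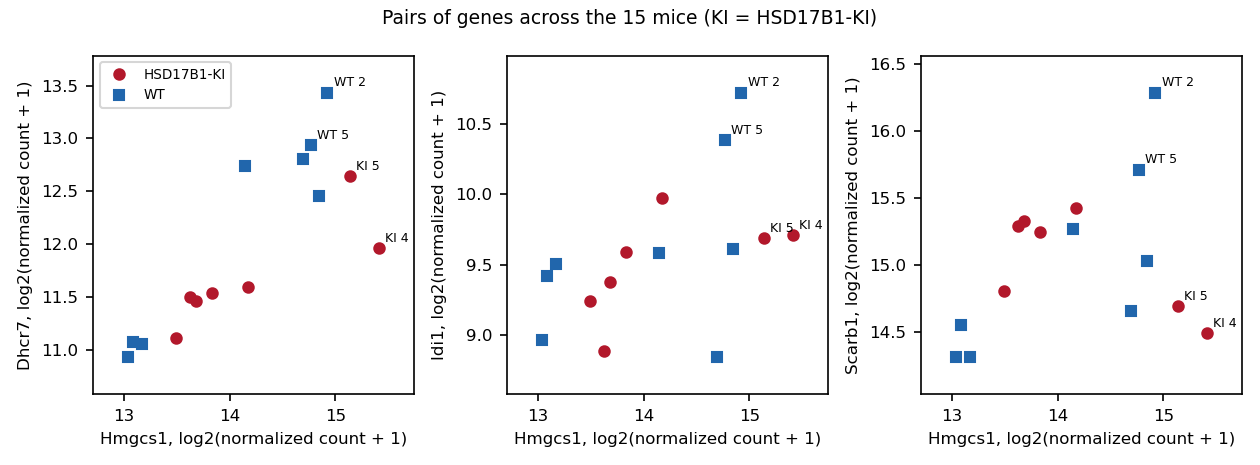
Log2(normalized count + 1) of Dhcr7, Idi1 and Scarb1 (vertical axes) against that of Hmgcs1 (horizontal axes), with circles for HSD17B1-KI and squares for WT mice. Dhcr7 rises with Hmgcs1, Idi1 is highest in WT 2 and WT 5, and HSD17B1-KI 4 and 5 combine the highest Hmgcs1 with low Scarb1.

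Levels of different genes were compared per kilobase of exon. Soat1 had 4550 normalized counts per kilobase over all mice, Hmgcs1 4494 and Scarb1 4232, and the ranges of these 3 over mice overlapped, so that their order is not set. The levels of a role lay far apart, since Soat1 was the highest gene of the list and Lipe, the other gene of ester storage, ranked 24 of 31. Scap had 2413, Abca1 2047 and Npc2 1941 per kilobase, whereas Abcg1, the lowest, had 88.8. On this scale the SREBP genes had 1064 for Srebf2 and 779 for Srebf1, and the LXR genes 1479 for Nr1h2 and 221 for Nr1h3. The level of Lipe, 405 per kilobase, was below that of Soat1 in every mouse of both genotypes.

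**Figure D5:**
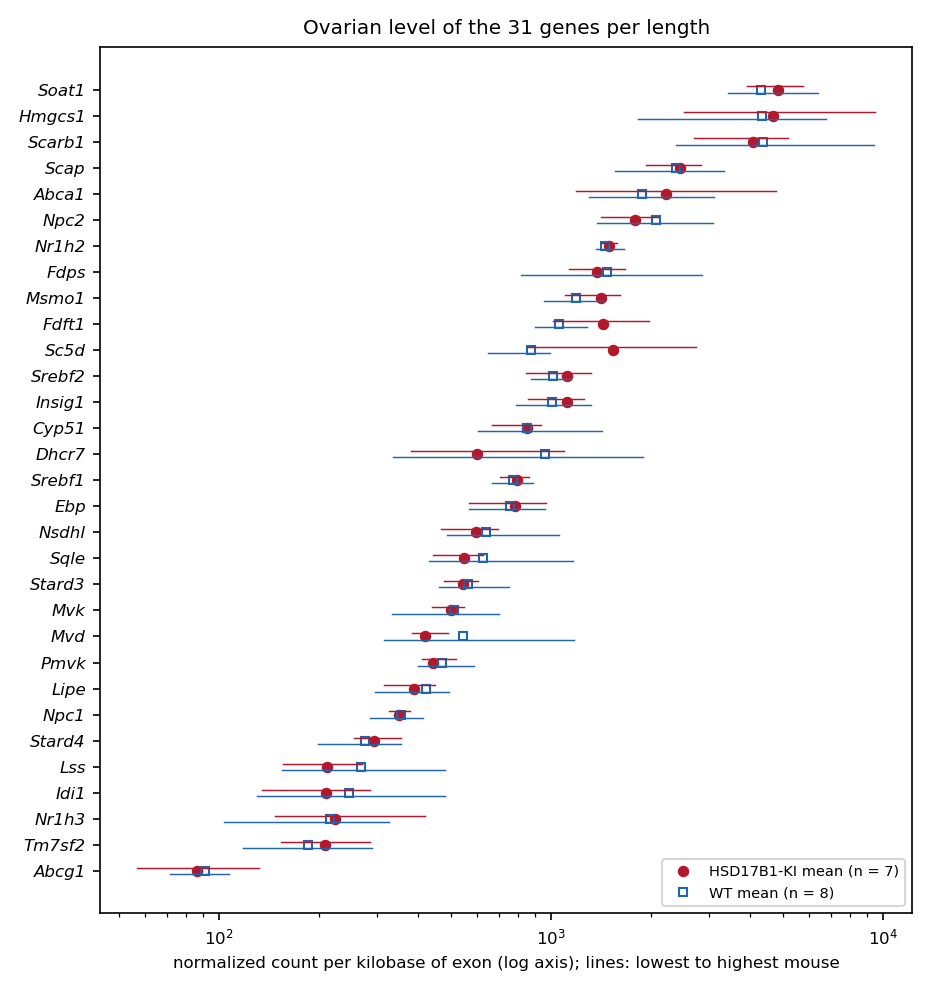
Normalized counts per kilobase of exon (horizontal log axis) for the 31 genes, ordered by their mean over all mice, with filled circles for the HSD17B1-KI mean, open squares for the WT mean and lines from the lowest to the highest mouse. Levels run from 88.8 for Abcg1 to 4550 for Soat1, and the 2 means of a gene lie close together except in Sc5d, Dhcr7 and Fdft1 and a few others.

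The list of 30 other genes of the same processes was set beside the 31. All 30 were tested, with a median log2 fold change of 0.0039, and 0 were DE with limma-trend or edgeR. An unadjusted limma-trend p under 0.05 was found for 3 with higher and 1 with lower expression, and the shares over all genes are those given above. Plin2, which coats lipid droplets in many cell types, showed a log2 fold change of 0.39 (SE 0.13, adjusted p from limma-trend = 0.308), and Plin1, the droplet coat of fat cells, of 0.44 (SE 0.20, adjusted p from limma-trend = 0.463). Lrp8, a receptor of the lipoprotein receptor family, had 1233 ± 435 normalized counts in HSD17B1-KI (SD, n = 7) against 3713 ± 3073 in WT (SD, n = 8), a log2 fold change of -1.30 (SE 0.41, adjusted p from limma-trend = 0.248, DESeq2 adjusted p = 0.00902), and its highest mouse, with 10204, was again WT 2. An unadjusted limma-trend p of 0.05 or more was found for 26 of the 30, and their log2 fold changes lay between -1.37 for the droplet gene Plin5 and 0.99 for Star.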

How the data were processed

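Total RNA of whole ovaries from 7 HSD17B1-KI and 8 WT females was made into Illumina TruSeq Stranded mRNA libraries. The authors demultiplexed the reads with bcl2fastq 2.20, trimmed them, aligned them to mm10 with STAR 2.7.3 and counted them per gene. Counts were scaled by 1 size factor per library and deposited by the authors as normalized signal of 27907 genes, and all 15 columns were used. The counting program, its strand setting and the annotation release are not given in the sources used here. The values of each library were whole multiples of 1 step for 100% of the table (tolerance 0.01), so that whole reads were recovered for edgeR and DESeq2, and the total per mouse was 26544745 to 72362981 reads.

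Genotypes were compared with limma-trend on log2(normalized count + 1) for the 21525 genes averaging 2 or more normalized counts, two-sided, with Benjamini-Hochberg adjustment over these genes and a threshold of 0.05. A log2 fold change on this scale understates that of low genes. Alternatives were DESeq2 (where 19855 genes had an adjusted p), edgeR (quasi-likelihood, TMM), array weights, quantile normalization, upper quartile scaling, a stricter filter of 10 and none, pseudocounts of 0.1 and 10, the replicate number as a block, fits without 1 mouse each and a threshold of 0.1. The oviduct or adipose marker score as a covariate and leaving out WT 1 and WT 8, the libraries with most oviduct marker, were added after seeing the data. Relations across mice used 100000 resamples within genotype, and exact tests within genotypes.

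The 31 genes, the lists and the tests were chosen with earlier results of these data known. All 31 genes are named. Of the 30 other genes, 1 that is included in the counts is not reported here. Of these 31, values per mouse are given for genes with an unadjusted limma-trend p or a DESeq2 adjusted p under 0.05 and for the gene with the largest absolute log2 fold change of each role. Values per mouse of Dhcr7, Mvd, Scarb1, Hmgcs1 and Nr1h3, the gap in the values of Hmgcs1 and the genes whose promoters are shown were chosen after their values were seen. Positions and exon lengths came from GENCODE M21, which held 27533 of the 27907 identifiers. Fits were run in R 4.3.3 with DESeq2 1.42.0, edgeR 4.0.16 and limma 3.58.1, and the rest in Python 3.11.15 with SciPy 1.17.1, pandas 2.3.3, NumPy 2.4.6 and Matplotlib 3.10.9.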

Additional observations from a re-analysis of the deposited data

Results flagged for a closer look

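In 3 of the 74 groups of mice tested, 1 mouse lay far from the others by Dixon's criterion, which flags about 1 group in 20 by chance. Sc5d had 13355 normalized counts in HSD17B1-KI 7, and the next highest HSD17B1-KI mouse had 7762. Dhcr7 had 6405 normalized counts in HSD17B1-KI 5, and the next had 3987. Abca1 had 49360 normalized counts in HSD17B1-KI 4, and the next had 23550.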

How the results depend on the processing

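The number of DE genes over the whole table was 46 with limma-trend, 28 without a filter, 28 with quantile normalization, 125 with array weights, 146 at an adjusted p under 0.1, 455 with DESeq2, 30 with the oviduct marker score as a covariate, 0 with the adipose marker score as a covariate, where 1274 had an unadjusted p under 0.05, and 9 without WT 1 and WT 8, and over the fits that each left out 1 mouse it lay between 6 (HSD17B1-KI 2 left out) and 139 (HSD17B1-KI 5 left out). Among the 31 cholesterol genes the number was 0, and it was 1, Sc5d, with array weights, with DESeq2, at an adjusted p under 0.1 and without HSD17B1-KI 5, and between 0 and 1 over the fits that left out 1 mouse. The number with an unadjusted p under 0.05 was 3, lay between 3 and 4 when 1 mouse was left out, and was 1, Sc5d, with the adipose marker score. Genes with small log2 fold changes changed sign, with adjusted p-values of 0.789 or more. With array weights these were -0.080 for Hmgcs1, -0.091 for Mvk, -0.14 for Fdps, -0.062 for Cyp51, -0.074 for Ebp, -0.021 for Scarb1, 0.036 for Stard3 and -0.066 for Nr1h3. With the oviduct marker score as a covariate these were -0.018 for Hmgcs1, -0.023 for Mvk, -0.014 for Fdps, 0.0078 for Stard3 and -0.073 for Nr1h3. Without WT 1 and WT 8 together these were -0.035 for Hmgcs1, -0.095 for Mvk, -0.070 for Fdps, -0.034 for Ebp, -0.052 for Scarb1, 0.087 for Stard3, -0.048 for Scap and -0.079 for Nr1h3. With edgeR these were -0.027 for Mvk, -0.10 for Fdps, -0.0070 for Cyp51 and -0.10 for Scarb1. With DESeq2 these were -0.027 for Mvk, -0.10 for Fdps, -0.0066 for Cyp51 and -0.10 for Scarb1. With the adipose marker score these were -0.0014 for Mvk, -0.0088 for Fdps, -0.034 for Cyp51, -0.10 for Scarb1 and 0.0094 for Stard3. With quantile normalization this was -0.036 for Scarb1. When 1 mouse was left out, the log2 fold changes that changed sign ranged from -0.095 to 0.23 for Hmgcs1, -0.079 to 0.074 for Mvk, -0.24 to 0.023 for Idi1, -0.087 to 0.17 for Fdps, -0.18 to 0.026 for Sqle, -0.021 to 0.16 for Cyp51, -0.11 to 0.053 for Nsdhl, -0.077 to 0.21 for Scarb1, -0.056 to 0.019 for Npc1, -0.072 to 0.028 for Stard3, -0.013 to 0.14 for Scap, -0.024 to 0.31 for Abca1, and -0.15 to 0.12 for Nr1h3. The r of Hmgcs1 with Idi1 lay between 0.45 and 0.71 and passed adjustment without WT 3, and that of Abca1 with Abcg1 lay between -0.22 and 0.03. The causes were not tested, except that fits without a mouse have fewer samples.

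The mice of both genotypes share replicate numbers, and the labels do not say that the numbers pair the mice. The deviations of same-numbered mice correlated between -0.55 and 0.55, which cannot decide whether they are paired. With the replicate number as a block, for which WT 8 has no partner, 0 genes were DE over the whole table in limma-trend, where 1730 had an unadjusted p under 0.05, and 0 among the cholesterol genes, and the log2 fold changes that changed sign were -0.023 for Hmgcs1, -0.079 for Mvk, -0.086 for Fdps, -0.077 for Scarb1, 0.0047 for Npc1, 0.0089 for Stard3, -0.013 for Scap and -0.11 for Nr1h3. Depth limits genes with few reads, which the 31 genes are not. The estimates rest on 7 and 8 mice, and genes that overlap others could share reads with them.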
